A study of Mus musculus with 4 samples.

Results

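The RNA of 10 germline genes, Dazl, Ddx4, Mael, Sycp1, Sycp3, Tex101, Asz1, Hormad1, Tex19.1 and Stk31, was examined in F123-ESCs, a male hybrid mouse embryonic stem cell (ESC) line whose autosomes come as an S129 copy from the mother and a CAST copy from the father. The genes were picked by their symbol and are 10 of the 24025 genes of the deposited table. All 10 were found there. They have been grouped as genes that DNA methylation silences outside the germ line, but only RNA was measured here, and the methylation of their promoters was not analysed.

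A single condition was measured, untreated F123-ESCs with the genotype S129/CAST, as 4 RNAseq libraries called replicates 1 to 4, so the comparisons possible are between genes, between libraries and between the alleles of a gene. The cells were grown on feeder fibroblasts in serum replacement with LIF, moved to gelatin without feeders for their last passages and harvested after about 48 h. F123 is 1 line from 1 direction of the cross, so the strain of an allele and the parent it came from cannot be told apart. The labels do not state whether the libraries came from separate cultures, so p-values measure the spread between these libraries, which may be technical. Each value is an RPKM, the read count scaled to transcript length and to the total of reads, made from stranded libraries of polyA-enriched RNA sequenced with paired reads of 150 bp and from those reads alone that cover a SNP between the strains. The reads assigned to both alleles totalled 34120416 to 56627972 per library, with the lowest total in replicate 4.

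Germline genes of this kind carry promoters rich in CpG, the dinucleotide that DNA methyltransferases methylate. In the embryo these promoters gain methylation around implantation, and they are also held down by a Polycomb complex that E2F6 and the MGA/MAX dimer bring to DNA through E2F words and E-boxes. The encoded proteins act in germ cells on RNA translation, on transposon silencing through piRNAs (small RNAs bound by Piwi proteins) and on the pairing of chromosomes in meiosis. ESCs and early embryos are known to hold RNA of some of them.

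The promoter of each gene was read in the RefSeq window from 250 bases before to 50 bases after its start, in the build GRCm38.p6, which has the coordinates of mm10. All 10 genes had a window. The window of Tex101, 24672001 to 24672300 on the minus strand, lay inside the annotated gene, whose 5′ end is at 24676675. The 250 bases before the start are shown for 4 genes, Tex19.1 and Mael because they had the highest and the lowest RNA level, and Hormad1 and Sycp3 because their alleles differed in opposite directions. The sequences run 5′ to 3′ on the strand of the gene, and capitals mark each CpG.
Tex19.1, chr11:121145893-121146142, plus strand: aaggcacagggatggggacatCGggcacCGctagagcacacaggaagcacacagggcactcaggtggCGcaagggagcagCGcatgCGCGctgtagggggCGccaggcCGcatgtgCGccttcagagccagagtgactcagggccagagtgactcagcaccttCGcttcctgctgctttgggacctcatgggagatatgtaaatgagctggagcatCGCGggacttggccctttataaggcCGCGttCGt
Mael, chr1:166238745-166238994, minus strand: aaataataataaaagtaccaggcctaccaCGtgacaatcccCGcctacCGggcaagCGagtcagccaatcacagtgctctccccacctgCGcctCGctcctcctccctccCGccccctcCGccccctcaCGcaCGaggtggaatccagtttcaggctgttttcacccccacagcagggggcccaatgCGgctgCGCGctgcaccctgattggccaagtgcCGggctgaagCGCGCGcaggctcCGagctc
Hormad1, chr3:95559427-95559676, plus strand: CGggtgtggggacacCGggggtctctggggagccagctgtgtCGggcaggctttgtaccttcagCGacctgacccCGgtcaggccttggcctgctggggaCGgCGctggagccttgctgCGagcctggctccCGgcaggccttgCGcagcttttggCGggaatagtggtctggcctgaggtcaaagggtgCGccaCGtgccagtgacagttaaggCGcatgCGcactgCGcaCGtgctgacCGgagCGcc
Sycp3, chr10:88459337-88459586, plus strand: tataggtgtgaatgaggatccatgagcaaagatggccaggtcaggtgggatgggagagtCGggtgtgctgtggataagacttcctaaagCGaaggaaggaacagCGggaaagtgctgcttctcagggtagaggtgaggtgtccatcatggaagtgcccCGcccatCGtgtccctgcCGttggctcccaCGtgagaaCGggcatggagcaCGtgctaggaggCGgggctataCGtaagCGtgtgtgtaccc

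All 10 promoters held more CpG than the median window of all genes. The number in the 300 bases ran from 15 in Sycp3 to 38 in Ddx4, with 16 in Tex19.1 and 24 in both Mael and Hormad1. The median was 22.5, against 7 over the first listed window of 27025 genes. The third quartile of these windows was 21, and Sycp3, Tex19.1, Asz1 and Tex101 lay below it. Genes that averaged 1 RPKM or more had a median of 21 CpG over 9306 windows, and genes under 1 RPKM a median of 4 over 8567 windows. The ratio of observed to expected CpG, which corrects for the G and C content, had a median of 0.78 for the 10 genes, 0.77 for the genes of at least 1 RPKM and 0.26 for those below. The germline promoters thus lay near the median of genes with RNA in these cells.

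**Figure D1:**
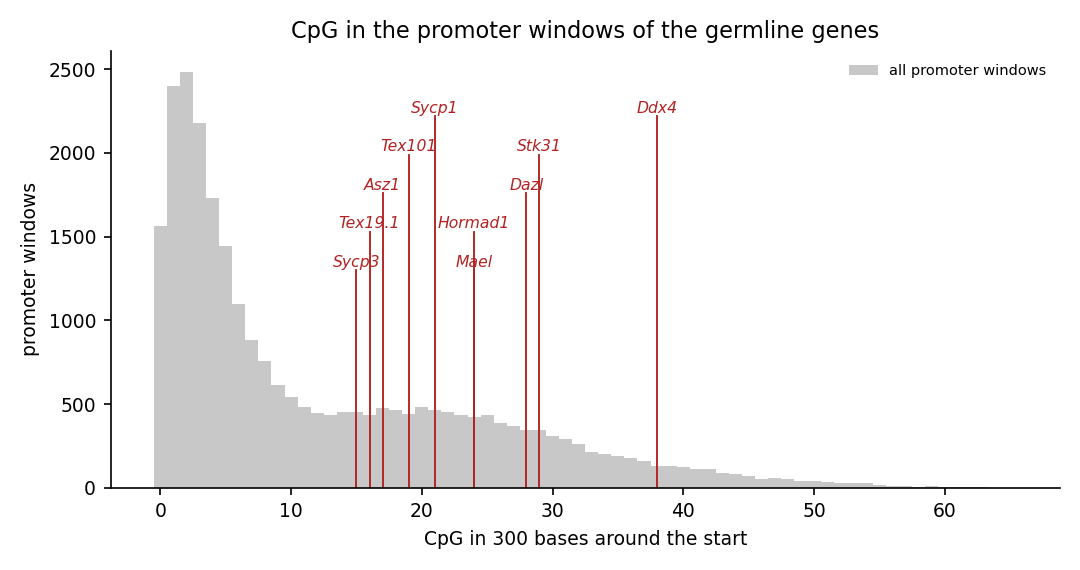
CpG in 300 bases around the start of each gene. The bars give the number of promoter windows at each number of CpG over all 27025 genes with a window, and the marks give the 10 germline genes, which lie from 15 to 38 CpG, to the right of the median of 7.

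Words that E2F factors and MGA/MAX are known to bind were searched on both strands. The E2F word GCGGGA stood in 6 of the 10 windows, Ddx4, Mael, Sycp1, Sycp3, Hormad1 and Tex19.1, and in 20% of all windows. The E-box CACGTG stood in 6 of the 10, Ddx4, Mael, Sycp1, Sycp3, Hormad1 and Stk31, and in 7.24% of all windows. Among genes of at least 1 RPKM the shares were 36.5% and 10.8%. Of the promoters shown, Hormad1 held its E-boxes 57 and 20 bases before the start, Sycp3 64 and 43 bases before it, and Mael 223 bases before it. Dazl, Tex101 and Asz1 held neither word in this window. Either word holds a CpG, and no match of one overlapped a match of the other. These matches describe letters, and no binding was measured.

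RNA of all 10 genes was found in F123-ESCs, in every library and from both alleles. The levels, taken as the mean of both alleles, spread over a ratio of 140 between the highest and the lowest gene. Each of the 10 had a mean of at least 1 RPKM, as did 49.7% of all genes, and each lay above the median of 0.975 RPKM over all genes. 5 of them lay above the third quartile of 9.58 RPKM, and the median of the 10 was 7.75 RPKM. In these cells the genes were therefore not silent at the level of RNA, and they are called germline genes below. In bulk RNA, a low level in every cell and a high level in few cells cannot be told apart.

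The 3 genes with the most RNA came from different branches of germ cell biology. Tex19.1 (ENSMUSG00000039329, chromosome 11, 121146143 to 121148319), which acts against transposons in germ cells and placenta, was measured at 155, 167, 160 and 130 RPKM in replicates 1 to 4, a mean of 153 ± 16.2 (SD, n = 4). This placed it at the percentile of 97.3 among all genes. Hormad1 (ENSMUSG00000028109, chromosome 3, 95559677 to 95587671), which marks unpaired chromosome axes in meiosis, was measured at 67.8, 61.7, 61.9 and 51 RPKM, a mean of 60.6 ± 6.97. Dazl (ENSMUSG00000010592, chromosome 17, 50279395 to 50293636), a germ cell protein that binds mRNA and promotes its translation, followed at 55.8, 55, 59 and 42.1 RPKM, a mean of 53 ± 7.46. The libraries of Hormad1 and Dazl overlapped, so their order was not resolved, while the lowest library of Tex19.1 was above the highest of Hormad1.

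Of the meiotic chromosome proteins, Sycp3 and Sycp1 stood well below Hormad1. Sycp3 (ENSMUSG00000020059, chromosome 10, 88459569 to 88473236), a part of the axis of meiotic chromosomes, was measured at 21.9, 17.4, 15.9 and 15.2 RPKM in replicates 1 to 4, a mean of 17.6 ± 3.01. Sycp1 (ENSMUSG00000027855, chromosome 3, 102818499 to 102936100), which forms the filaments that zip paired chromosomes together, was measured at 4.42, 4.59, 4.8 and 4.11 RPKM, a mean of 4.48 ± 0.289. The lowest library of either gene was above the highest of the next gene in the order.

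Ddx4 and the remaining genes lay between 1 and 12 RPKM. Ddx4 (ENSMUSG00000021758, chromosome 13, 112598333 to 112652475), the RNA helicase also called Vasa, was measured at 10.7, 11.5, 11.9 and 10 RPKM, a mean of 11 ± 0.827. Stk31 (ENSMUSG00000023403, chromosome 6, 49395604 to 49469501), a germ cell protein with a tudor and a kinase domain, was measured at 4.07, 4.02, 4.06 and 3.16 RPKM, a mean of 3.83 ± 0.448. Its values in replicates 1 to 3 lay close together and replicate 4 stood below them. Tex101 (ENSMUSG00000062773, chromosome 7, 24668007 to 24676675), a surface protein of testicular germ cells, was measured at 3.67, 3.29, 3.22 and 3.55 RPKM, a mean of 3.43 ± 0.215, which overlapped with Stk31.

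Asz1 and Mael, both proteins of the piRNA pathway, had the least RNA. Asz1 (ENSMUSG00000010796, chromosome 6, 18050964 to 18109061) was measured at 2.17, 2.74, 3.08 and 2.77 RPKM in replicates 1 to 4, a mean of 2.69 ± 0.377. Mael (ENSMUSG00000040629, chromosome 1, 166201201 to 166238747) was measured at 1.31, 0.806, 1.01 and 1.26 RPKM, a mean of 1.1 ± 0.235. The value of Mael in replicate 2 was the only level of the 10 genes in any library below 1 RPKM. Its coefficient of variation, 21.5%, was the largest of the 10 genes, and it rested on the fewest reads, 13 to 98 per allele and library, against 3385 to 8467 for Tex19.1.

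**Figure D2:**
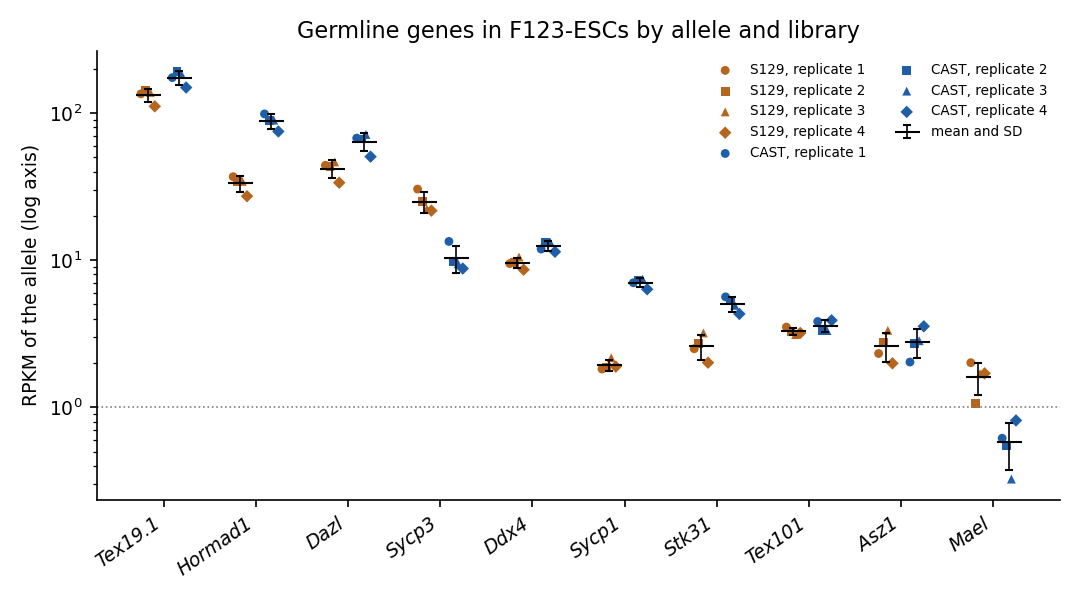
RPKM of the 10 germline genes on a log axis, with a symbol for each allele in each of the 4 libraries, black marks at the mean and SD of each allele and a dotted line at 1 RPKM. The genes run from 153 RPKM for Tex19.1 to 1.1 RPKM for Mael, and the alleles of Hormad1, Sycp1, Sycp3 and Mael lie apart from each other.

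The alleles of most of these genes did not contribute equally. Alleles were compared within each library on log2(RPKM + 0.1) by limma, with p-values adjusted over the 16296 genes that averaged 0.1 RPKM or more, and called at an adjusted p under 0.05. 6 of the 10 genes had more RNA from CAST, Dazl, Ddx4, Sycp1, Hormad1, Tex19.1 and Stk31, where 28.9% of all genes did. 2 of the 10 had more from S129, Mael and Sycp3, where 29.5% of all genes did, and the alleles of Tex101 and Asz1 were not called. In either direction 58.4% of all genes were called, and 65.1% with the fit limited to genes of at least 0.5 RPKM. The 10 germline genes all averaged at least 1 RPKM. The difference was at least 2-fold in 4 genes, Hormad1, Sycp1, Sycp3 and Mael, and in 16.3% of all genes. No lean of the surrounding genes was taken out for these counts. The values over all genes include X-linked genes, which male cells hold on a single, maternal X chromosome. The 10 germline genes are autosomal, so these backgrounds are not fully like for like. All 8 genes called went the same way in all 4 libraries, and in each of them the ranges of the alleles did not overlap. The median log2 difference of S129 minus CAST was -0.39 over the 10 genes and 0.0012 over all genes. The median size of the difference was 0.78 over the 10 genes, 0.34 over all genes and 0.29 over genes of at least 1 RPKM. Over all genes, X-linked genes included, 4813 were higher from S129 and 4709 from CAST. Summed over autosomal genes, the RPKM of S129 were below those of CAST in every library, at 899837 and 993627 in replicate 1. The unscaled values thus leaned to CAST on autosomes by this measure. With the alleles scaled to equal autosomal sums, 5876 genes were higher from S129 and 3483 from CAST. The median of all genes then moved by 0.10 towards S129, and the calls of the 10 genes were still 2 and 6.

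**Figure D3:**
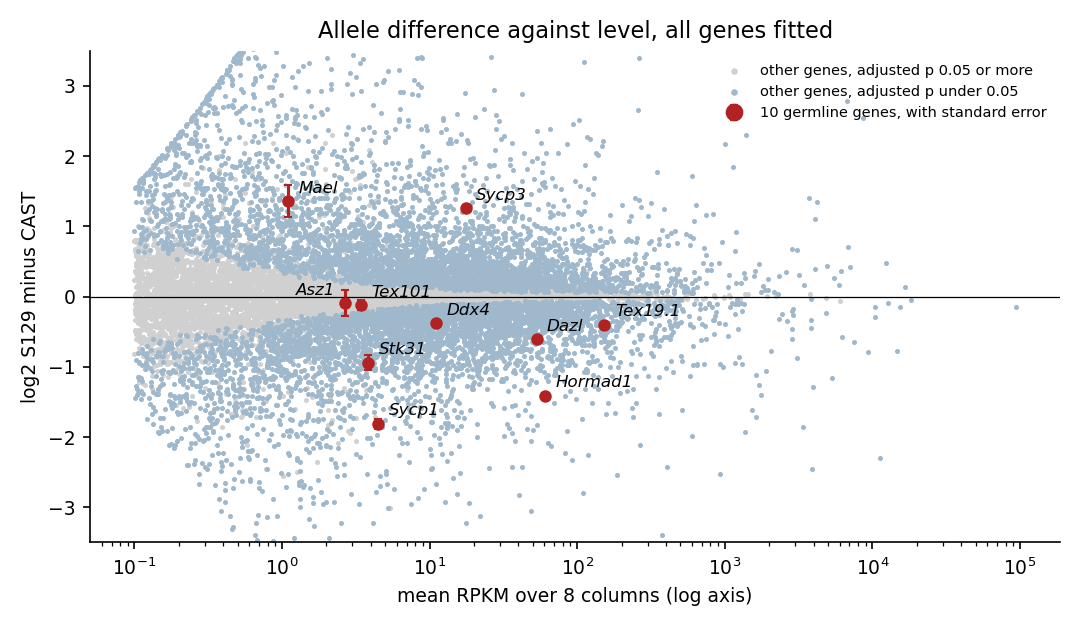
Difference between alleles, log2 S129 minus CAST, against the mean RPKM on a log axis for all genes fitted, with the 10 germline genes and their standard errors in red. Hormad1 and Sycp1 lie lowest and Mael and Sycp3 highest of the 10, and 548 other genes lie outside the drawn range of 3.5. Among these are X-linked genes such as Tex11 and Taf7l, which male cells hold on a single, maternal X chromosome.

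Of the genes of meiotic chromosomes, Sycp1 and Hormad1 leaned to CAST and Sycp3 to S129. Sycp1 gave 1.82, 1.86, 2.17 and 1.89 RPKM from S129 in replicates 1 to 4 and 7.02, 7.32, 7.43 and 6.34 RPKM from CAST. The CAST allele was thus above the S129 allele by a wide margin in each library, with a log2 difference of -1.81 ± 0.0711 (SE; limma, adjusted p = 4.39e-06). Hormad1 gave 36.9, 34.3, 34.3 and 27.2 RPKM from S129 and 98.6, 89.1, 89.4 and 74.9 RPKM from CAST, a log2 difference of -1.41 ± 0.0241 (limma, adjusted p = 1.54e-07). The share of S129 in the RPKM of both alleles varied little, from 26.7% to 27.8% for Hormad1 and from 20.3% to 23% for Sycp1. The S129 allele of Sycp3 gave 30.4, 25, 22.3 and 21.7 RPKM and the CAST allele 13.4, 9.74, 9.44 and 8.77 RPKM, a log2 difference of 1.26 ± 0.0413 (limma, adjusted p = 1.9e-06). Both alleles of Sycp3 were highest in replicate 1, and the share of S129 stayed between 69.4% and 72%. Sycp3 overlaps Chpt1, a gene of phospholipid synthesis on the opposite strand, in 660 of its 1264 exon bases. Chpt1 had 20.3 RPKM and a log2 difference of 0.53 (limma, adjusted p = 0.00187), also towards S129. The libraries were made with a stranded kit, TruSeq Stranded mRNA, but whether reads were counted by strand is not given in the sources used here, so the part of Chpt1 in the values of Sycp3 was not tested.

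Dazl, Ddx4 and Tex19.1 leaned to CAST by less than 2-fold. Dazl gave 44.1, 43.5, 46.5 and 33.6 RPKM from S129 and 67.5, 66.6, 71.4 and 50.5 RPKM from CAST, a log2 difference of -0.61 ± 0.0211 (limma, adjusted p = 2.52e-06). Ddx4 gave 9.48, 9.69, 10.5 and 8.61 RPKM from S129 and 11.9, 13.2, 13.2 and 11.4 RPKM from CAST, a log2 difference of -0.38 ± 0.0408 (limma, adjusted p = 0.000411). The shares of S129 were 39.4% to 40% for Dazl and 42.3% to 44.2% for Ddx4, so both genes leaned to CAST by a margin that hardly changed between libraries. Tex19.1 gave 135, 143, 138 and 111 RPKM from S129 and 174, 192, 183 and 149 RPKM from CAST, a log2 difference of -0.40 ± 0.0179 (limma, adjusted p = 7.77e-06). The paralogue Tex19.2 lies 27466 bp away, had 8.86 RPKM and leaned further to CAST, with a log2 difference of -0.98 (limma, adjusted p = 5.88e-05). Near-identical copies may share reads, so the values of this pair are uncertain to that extent.

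Stk31 gave 2.5, 2.7, 3.2 and 2.01 RPKM from S129 and 5.63, 5.35, 4.93 and 4.31 RPKM from CAST, a log2 difference of -0.94 ± 0.102 (limma, adjusted p = 0.000415). Its share of S129 ranged more widely, from 30.8% to 39.3%, the highest in replicate 3. Mael gave 2.01, 1.06, 1.69 and 1.7 RPKM from S129 and 0.616, 0.553, 0.325 and 0.814 RPKM from CAST, a log2 difference of 1.36 ± 0.229 (limma, adjusted p = 0.00301). This was the least precise of the differences called. Over the 4 libraries Mael had 264 reads from S129 and 88 from CAST, 75% from S129 with an exact Clopper-Pearson 95% interval of 70.1% to 79.4% that covers counting error only. With a pseudocount of 1 RPKM in place of 0.1 RPKM its log2 difference was 0.73.

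Tex101 and Asz1 showed no difference that passed the test. Tex101 gave 3.51, 3.27, 3.12 and 3.2 RPKM from S129 and 3.83, 3.3, 3.32 and 3.9 RPKM from CAST, a log2 difference of -0.12 with a 95% interval of -0.30 to 0.054 (limma, adjusted p = 0.191). The CAST value was above the S129 value in each of the 4 libraries, but the ranges overlapped. Asz1 gave 2.32, 2.76, 3.33 and 1.99 RPKM from S129 and 2.03, 2.71, 2.83 and 3.55 RPKM from CAST, a log2 difference of -0.092 with a 95% interval of -0.55 to 0.36 (limma, adjusted p = 0.699). Its S129 share was 50.4% to 54.1% in replicates 1 to 3 and 35.9% in replicate 4, and without replicate 4 the difference was 0.15 (limma, adjusted p = 0.211). These intervals do not show that the alleles were equal.

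**Figure D4:**
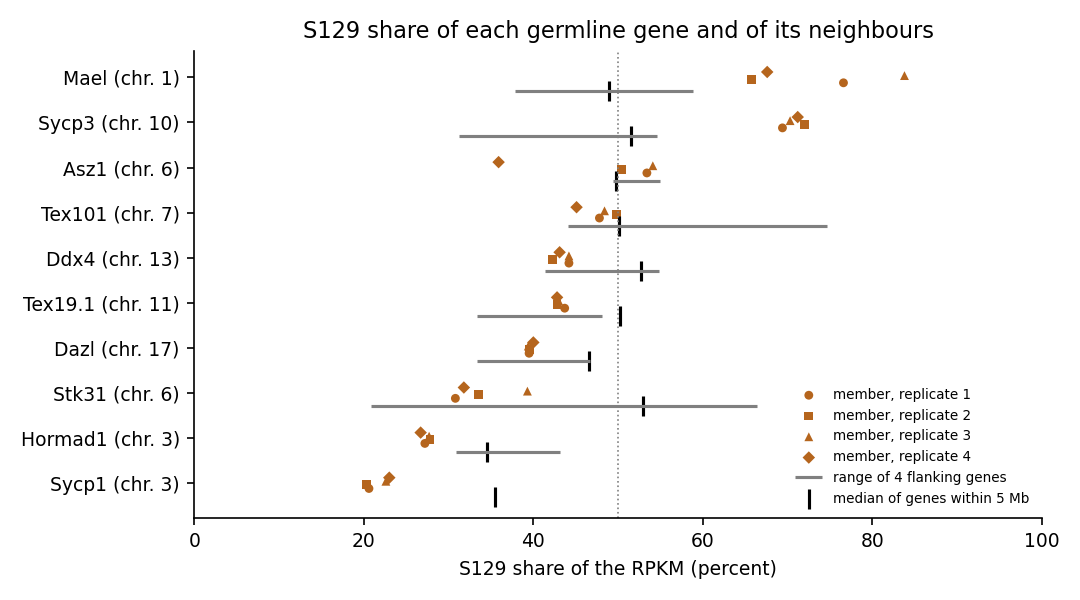
Share of S129 in the RPKM of both alleles, in percent, with a symbol for each of the 4 libraries, a grey line under them for the range of the 4 flanking genes (not drawn for Sycp1), a black tick for the median of genes within 5 Mb and a dotted line at equal alleles. Sycp1 lies between 20.3% and 23% and Hormad1 between 26.7% and 27.8%, Mael and Sycp3 lie above 65%, and Asz1 drops to 35.9% in replicate 4.

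The genes around each germline gene were compared because stretches of a chromosome can lean to one allele. Sycp1 and Hormad1 both lie on chromosome 3, where the median S129 share over 521 protein-coding genes of at least 1 RPKM was 37.1%. Within 5 Mb the median share was 34.5% over 67 genes around Hormad1 and 35.5% over 50 genes around Sycp1. Sycp1 lay below all 50 of its neighbours and Hormad1 below 59 of its 67. With the median of the neighbours taken out, the log2 differences came to -0.95 for Sycp1 (limma, adjusted p = 0.000102) and -0.48 for Hormad1 (limma, adjusted p = 2.17e-05). The medians taken out were -0.86 and -0.91. This test sets each gene against the median of its neighbours and takes no account of their spread.

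The other genes lay in surroundings with near-equal alleles, with median shares of 46.6% to 53% within 5 Mb. Mael lay above all 48 of its neighbours, Sycp3 above 39 of 41 and Stk31 below 35 of 36. With the neighbours taken out the differences were 1.42 for Mael, 1.18 for Sycp3 and -1.11 for Stk31. Dazl moved from -0.61 to -0.42, Ddx4 from -0.38 to -0.55, and Tex19.1 was at -0.40 in both. The germline genes were also compared with the nearest 2 protein-coding genes of at least 1 RPKM on each side that did not overlap them. Mael, at a share of 73.7%, was above Dusp27, Gpa33, Tada1 and Pogk, which lay between 37.8% and 58.9%. Sycp3, at 70.6%, was above Dram1, Gnptab, Spic and Arl1, which lay between 31.2% and 54.6%. It was also above the overlapping Chpt1, which had a share of 59.4%. Hormad1, at 27.4%, was below Setdb1, Arnt, Golph3l and Ensa, which lay between 30.9% and 43.2%. Asz1, at 48.3%, was below Capza2, St7, Lsm8 and Tspan12 by little, since these lay between 49.4% and 54.9%. Tex101, Tex19.1, Dazl, Ddx4 and Stk31 lay within the range of their flanking genes.

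Further germline genes were examined in the same way. Of 66 genes in lists of piRNA and germ granule proteins, meiotic recombination and synapsis proteins, and regulators of germ cells, 43 averaged 1 RPKM or more and 1 was listed at 0 throughout, where 49.7% of all genes reached 1 RPKM and 15.7% were listed at 0. In the piRNA list, 10 of 18 genes reached 1 RPKM, led by Fkbp6, a cochaperone of piRNA biogenesis, at 60.8 ± 1.65, Rnf17 at 15.2 ± 1.43 and Tdrd12 at 14.4 ± 0.467 RPKM. In the meiotic list, 18 of 28 did, led by Rec114, which takes part in the formation of meiotic double-strand breaks, at 199 ± 13, Trip13 at 31.5 ± 3.24 and Stra8, the retinoic acid target that opens meiosis, at 28.8 ± 1.62 RPKM. Among the regulators, 15 of 20 did, led by Tex15, which acts in transposon silencing in male germ cells, at 73.2 ± 4.95, Sohlh2, a transcription factor of spermatogonia and oocytes, at 44.4 ± 5.99 and Tfap2c, a transcription factor of primordial germ cells, at 29.1 ± 2.65 RPKM. Rec114 was the only one of these leading genes with a mean above that of Tex19.1.

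Alleles of these genes differed in both directions. Of the 60 genes fitted, 22 had more RNA from S129, 18 had more from CAST and 20 were not called, with a median log2 difference of 0.003. Over all genes fitted, X-linked genes included, the shares were 29.5% towards S129 and 28.9% towards CAST. By list the counts for S129 and CAST were 6 and 6 of 17 piRNA genes, 8 and 7 of 25 meiotic genes and 8 and 5 of 18 regulators. 17 of the 60 were called with a difference of at least 2-fold, as were 16.3% of all genes. Of the 17, Tex11 and Taf7l are X-linked, and male cells hold a single, maternal X chromosome, so no fold is given for them. CAST was at 0.00323 RPKM for Tex11 and listed at 0 for Taf7l. Towards S129 lay Stag3, a cohesin of meiosis, at 2.52 log2 units, and Piwil4, a Piwi protein, at 2.27, Meiob at 1.76, Gtsf1 at 1.69, Rnf17 at 1.54, Stra8 at 1.41, Nobox at 1.38, Nanos3 at 1.18, Syce1 at 1.09 and Slc25a31 at 1.03. Towards CAST lay Prdm14, a regulator of pluripotency and of primordial germ cells, at -2.44, followed by Henmt1 at -1.43, Msh4 at -1.21, Tdrd5 at -1.02 and Tex15 at -1.01. Henmt1, Msh4 and, on the S129 side, Slc25a31 lie on chromosome 3, where the median S129 share over 521 protein-coding genes was 37.1%. The values given here do not have the lean of surrounding genes taken out.

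Genes of late sperm formation were mostly near 0. Of 12 post-meiotic spermatid genes, 3 reached 1 RPKM, Odf2 at 45.6 ± 4.33, Gapdhs at 5.62 ± 0.904 and Ldhc at 3.02 ± 0.412 RPKM. The protamines, which pack sperm DNA, were at 0.0501 ± 0.0375 RPKM for Prm1 and listed at 0 in all 8 columns for Prm2. None of the 6 spermatid genes fitted was called between alleles by limma, where 58.4% of all genes fitted were. Those of the 6 under 1 RPKM averaged only 0.113 to 0.53 RPKM, so equal alleles are not shown.

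RNA of repressors known from germline promoters of this kind was found in the same libraries. All 13 genes of the list had at least 1 RPKM. Of the DNA methylation machinery, Dnmt3l, a cofactor without catalytic activity, had 2142 ± 85.9 RPKM, Uhrf1 122 ± 16.8, Dnmt3b 71.2 ± 7.18, Dnmt1 55.6 ± 5.81 and Dnmt3a 20.4 ± 2.43. Of the Polycomb complex and its DNA-binding partners, Pcgf6 had 50.7 ± 3.4 RPKM, Max 39.9 ± 2.62, L3mbtl2 32.1 ± 3.08, Mga 9.33 ± 0.59 and E2f6 5.69 ± 0.67. The histone H3K9 methyltransferases Ehmt2, Setdb1 and Ehmt1 had 32.1 ± 3.69, 19.5 ± 1.45 and 10.7 ± 1.24 RPKM. RNA levels do not give the activity of these proteins.

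RNA of pluripotency markers was found in all libraries, beside RNA of feeder fibroblast and primitive endoderm markers. All 8 pluripotency markers had at least 1 RPKM, with Sox2 at 125 ± 14.4, Nanog at 84.5 ± 11.4 and Pou5f1 at 29.5 ± 4.08 RPKM. Of 10 feeder fibroblast markers, 8 had at least 1 RPKM, with a summed level of 1788 to 2108 RPKM per library led by Vim, also expressed by ESCs, at 1703 ± 136, Col1a2 at 166 ± 17.5 and Fn1 at 53.4 ± 7.85 RPKM. Postn, Col3a1 and Col1a1 were at 15.4, 11.4 and 5.68 RPKM, Fbn1 and Thy1 at 2.24 and 1.57, and Dcn and Lum at 0.659 and 0.0462. Of 6 primitive endoderm markers, 4 had at least 1 RPKM, with a summed level of 46.7 to 53.6 RPKM, nearly all of it Dab2 at 44.2 ± 2.85 RPKM, while the others lay between 0.189 and 3.31 RPKM. The part of such cells in the levels of the germline genes was not tested.

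Replicate 4 gave the lowest value of 7 of the 10 germline genes, Tex19.1, Hormad1, Dazl, Sycp3, Ddx4, Sycp1 and Stk31. It was also the lowest library for 55.1% of all genes of at least 1 RPKM. Against the mean of the other libraries, the median log2 difference in replicate 4 was -0.23 over the germline genes and -0.13 over all genes, with the largest drops in Dazl at -0.43 and Stk31 at -0.35. After scaling of the libraries by their median ratio, replicate 4 was lowest for 6 of the 10 genes and for 34.2% of all genes. This library had the fewest reads, and the part of depth in this was not tested.

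**Figure D5:**
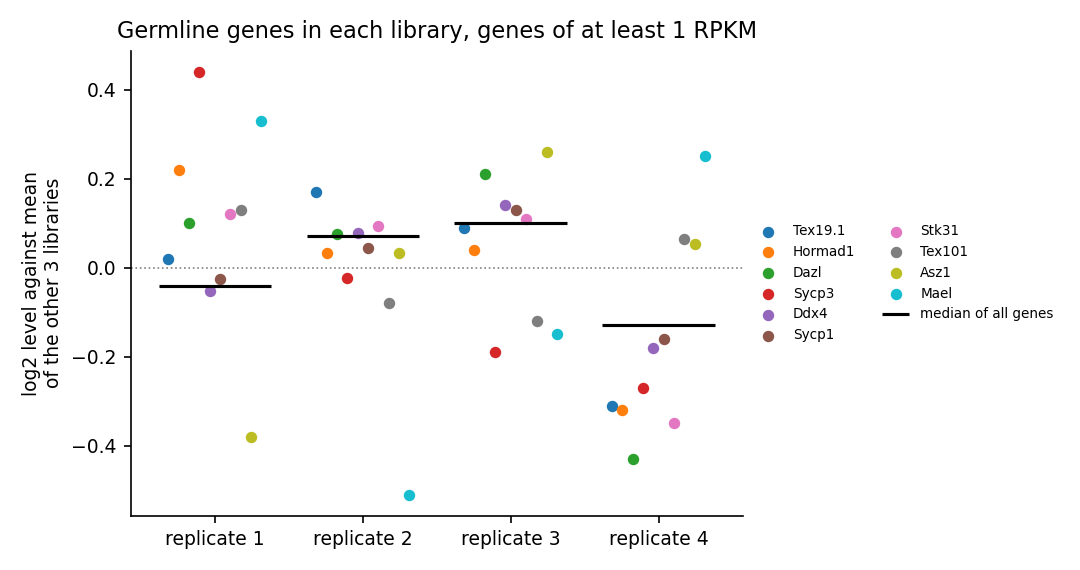
Log2 difference of each library from the mean of the other libraries for the 10 germline genes, with the median of all genes of at least 1 RPKM in each library as a line. In replicate 4, 7 of the 10 genes lie below 0, from Dazl at -0.43 to Sycp1 at -0.16, and the median of all genes lies at -0.13.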

How the data were processed

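RNAseq of untreated F123-ESCs was examined in 4 libraries, grouped by their labels as replicates 1 to 4. Per the labels and the methods, the authors removed ribosomal RNA reads with SortMeRNA, trimmed with Trimmomatic (0.40), aligned with STAR to mm10 masked at SNPs, and divided reads by SNPsplit into S129 and CAST. Values were deposited as an RPKM of each gene for either allele. The program that counted reads, the annotation and the strand setting of counting are not given in the sources used here. The authors also deposited for each allele the average RPKM and log10 of it plus 1, which were not used. The number of columns of another sample was 0.

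Genes were matched by identifier to GENCODE M21 (23994 of 24025). Whole reads were recovered from the steps of the RPKM values, within 0.02 reads, in 99.5% of 20242 genes above 0. 1 read on 1 kb of transcript stood for 0.0348 to 0.0598 RPKM. Where no annotated length explained the steps, as for Dazl, lengths were searched and the reads are the fewest possible. Intervals cover counting error only. Levels are means of both alleles. The share of S129 is its RPKM divided by the sum of both alleles. Alleles were compared by limma (3.58.1 in R 4.3.3) with a variance trend on differences of log2(RPKM + 0.1) within libraries, on which differences of low genes are understated, with Benjamini-Hochberg adjustment over 16296 genes. Alleles were paired because S129 and CAST columns of a number split the reads of the same library. Over 11946 genes, deviations correlated at 0.146 to 0.234 for columns of one library and -0.187 to 0.151 for others. The recovery and the limma fit were tested on simulated data. Neighbours are protein-coding genes of at least 1 RPKM on the same chromosome.

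The germline genes and all lists were chosen with earlier results of these data known. Named beside them were the 3 highest genes of each germline list, genes of these lists called at 2-fold or more, all repressors, Tex19.2, and flanking genes where a germline gene lay outside all 4. The flanking genes of Sycp1 are not reported here. Chpt1, Dab2, the protamines, the spermatid genes of at least 1 RPKM and the pluripotency markers given with values were chosen after their values were seen. Alternatives were other pseudocounts, filters, variance models, scalings, lengths and windows, single alleles, no replicate block, and each library left out. Taking out the median of neighbours and scaling by the median ratio were added after seeing the data.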

Additional observations from a re-analysis of the deposited data

Results flagged for a closer look

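Stk31 had a level of 3.16 RPKM in replicate 4, while replicates 1 to 3 lay between 4.02 and 4.07 RPKM. The gap to the nearest library, divided by the range of all 4, was above Dixon's critical value for 4 samples. The levels and the S129 shares of the 10 germline genes gave 20 such quantities, and this was the 1 above the critical value, where chance gives about 1 in 20.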

How the results depend on the processing

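The number of germline genes called between alleles was 8, 6 towards CAST and 2 towards S129, under every alternative run, including the fit with no replicate block, which called 45.2% of all genes in place of 58.4%. Which genes differed by at least 2-fold did depend on the setting. With the median of neighbours within 5 Mb taken out, the log2 difference was -0.48 for Hormad1, -0.95 for Sycp1 and -1.11 for Stk31. With a pseudocount of 1 RPKM it was 0.73 for Mael. The 8 genes kept direction and side of the threshold in 104 of 104 alternative fits, and 128 of 130 fits of all 10 genes did. The 2 others were of Asz1, which was not called in either and whose difference came to 0.0074 with autosomal sums equal and ran from -0.20 to 0.15 with each replicate left out, highest without replicate 4, against -0.092; the cause was not tested. The median level of the 10 genes was 6.42 RPKM for the S129 allele alone and 8.68 RPKM for the CAST allele alone, in place of 7.75, because the alleles differ, and 7.55 to 7.97 RPKM with each replicate left out. Of 90 levels of single genes under alternatives, 21 moved by more than 1 SD between libraries, all with single alleles or with lengths of all annotated exons. Calls among the other germline genes numbered 37 to 40, and 9 of the 10 genes were above a threshold of 2 RPKM. Depth limits Mael, Tex101 and Asz1 most. RPKM of different genes also depend on how many SNPs each holds, which was not measured.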
